A study of Mus musculus with 2 samples.

Results

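Complex I genes were placed on the map of chromatin domain boundaries of mature olfactory sensory neurons. The 44 genes are all autosomal protein-coding genes in GENCODE M21 (build GRCm38) whose symbol begins with Nduf, of 20807 autosomal protein-coding genes in all. They encode 34 subunits of complex I, 8 assembly factors and 2 proteins, Ndufa4 and Ndufa4l2, that are not subunits of the enzyme. Ndufb11 and Ndufa1 lie on the X chromosome and were left out of the counts. The rule used gene symbols and no measured value.

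Adult, untreated 129P2/OlaHsd mice of mixed sex gave the neurons, which were taken from olfactory epithelium and sorted by flow cytometry for expression of the odorant receptor gene Olfr17. The sorting protocol names the animals as P2-GFP mice, in which green fluorescent protein marks cells using this receptor, while the label for modifications reads none. In situ Hi-C, which joins and sequences DNA fragments that were neighbours in the fixed nucleus, was made with the restriction enzyme DpnII and 1% formaldehyde from 2 biological replicates of 23000 and 20000 cells. Both replicates were combined into 1 contact matrix before boundaries were called, so each gene has 1 value and no spread between animals can be given. The list holds 7169 autosomal boundaries, each a bin of 5 kb, of which 3917 (54.6%) carry the class Strong and the others the class Weak. Contacts are sparse from one side of a boundary to the other, and its score, which has no stated unit and a median of 0.564 here, sets the class at a threshold of 0.5. How many contacts were sequenced is not stated in the sources used here, so the depth is unknown. A list of boundaries holds no expression values, so the cell type was not checked against its markers.

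Complex I is the NADH dehydrogenase of the inner mitochondrial membrane. It passes electrons from NADH through a flavin and a chain of iron-sulfur clusters in its matrix arm to ubiquinone and pumps protons through its membrane arm, and the gradient drives the ATP synthesis on which ion transport in neurons depends. The proton-pumping core of the membrane arm is encoded by mitochondrial DNA, whereas the core of the matrix arm, all accessory subunits and the assembly factors are nuclear genes. In mammalian genomes domain boundaries are known to gather at sites of the insulator protein CTCF and at promoters of broadly expressed genes. Distance here is from the annotated start of a gene (the transcription start site, TSS) to the midpoint of the nearest boundary bin.

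Of the 44 genes, 5 started within 2 kb of a boundary midpoint, so that the start lay inside the boundary's own bin, and their promoters are the sequences that share a bin with a boundary. Within a bin neither the order of distances nor the side of the boundary is resolved. They are given first, from RefSeq on build GRCm38.p6, with 250 bases before and 30 bases from the RefSeq start, on the strand of transcription. Ndufa3 and Ndufb3, both far from a boundary and both chosen after their distances were seen, follow as a contrast. Capitals mark matches on either strand to 4 short motifs of known promoter factors (CCGGAAG of ETS factors, GCATGCGC of NRF1, AAGATGGC of YY1 and GGGCGG of SP/KLF factors) and, in Ndufaf4, also a match to the CTCF core consensus.
Ndufb2 (chr6:39592315-39592594, plus strand): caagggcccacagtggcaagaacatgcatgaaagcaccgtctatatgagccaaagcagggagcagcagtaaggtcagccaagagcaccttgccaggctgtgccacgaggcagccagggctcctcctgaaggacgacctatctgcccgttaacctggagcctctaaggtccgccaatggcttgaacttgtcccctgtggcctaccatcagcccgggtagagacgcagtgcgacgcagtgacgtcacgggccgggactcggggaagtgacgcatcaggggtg
Ndufaf4 (chr4:24897833-24898112, plus strand): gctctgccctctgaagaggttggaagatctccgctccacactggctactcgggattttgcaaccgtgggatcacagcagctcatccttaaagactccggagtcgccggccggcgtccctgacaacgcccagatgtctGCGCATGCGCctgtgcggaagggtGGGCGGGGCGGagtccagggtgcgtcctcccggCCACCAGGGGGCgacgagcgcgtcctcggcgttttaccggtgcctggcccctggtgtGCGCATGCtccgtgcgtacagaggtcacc
Ndufaf2 (chr13:108158596-108158875, minus strand): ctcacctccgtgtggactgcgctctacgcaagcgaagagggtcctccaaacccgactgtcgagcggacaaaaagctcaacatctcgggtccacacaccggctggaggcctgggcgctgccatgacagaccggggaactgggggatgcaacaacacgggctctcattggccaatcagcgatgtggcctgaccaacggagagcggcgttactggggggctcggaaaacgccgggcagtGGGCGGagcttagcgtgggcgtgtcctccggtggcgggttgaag
Ndufa12 (chr10:94198785-94199064, plus strand): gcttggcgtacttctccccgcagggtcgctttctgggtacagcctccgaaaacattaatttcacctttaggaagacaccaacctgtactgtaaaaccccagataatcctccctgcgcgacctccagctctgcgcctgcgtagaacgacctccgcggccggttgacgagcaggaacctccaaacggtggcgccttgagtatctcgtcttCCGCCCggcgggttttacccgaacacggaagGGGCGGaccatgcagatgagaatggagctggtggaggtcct
Ndufaf5 (chr2:140170396-140170675, plus strand): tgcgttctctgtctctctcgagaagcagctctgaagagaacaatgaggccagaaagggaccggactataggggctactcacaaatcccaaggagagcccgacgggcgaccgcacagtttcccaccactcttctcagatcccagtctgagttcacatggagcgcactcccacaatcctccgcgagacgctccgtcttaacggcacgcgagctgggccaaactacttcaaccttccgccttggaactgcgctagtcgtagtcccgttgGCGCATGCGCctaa
Ndufa3 (chr7:3617123-3617402, plus strand): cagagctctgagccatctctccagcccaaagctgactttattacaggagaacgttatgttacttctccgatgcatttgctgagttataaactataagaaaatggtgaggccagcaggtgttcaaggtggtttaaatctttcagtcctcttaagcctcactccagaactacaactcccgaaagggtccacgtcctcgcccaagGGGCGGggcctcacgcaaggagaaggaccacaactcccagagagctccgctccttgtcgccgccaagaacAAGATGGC
Ndufb3 (chr1:58586147-58586426, plus strand): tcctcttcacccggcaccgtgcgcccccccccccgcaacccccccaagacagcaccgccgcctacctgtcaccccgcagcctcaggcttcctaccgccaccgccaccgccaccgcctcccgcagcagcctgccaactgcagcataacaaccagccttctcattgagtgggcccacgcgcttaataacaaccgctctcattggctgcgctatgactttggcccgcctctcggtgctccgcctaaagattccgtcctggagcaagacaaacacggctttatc

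The promoter of Ndufaf4 held the most capitals. Its 3 matches to NRF1 began at bases -113, -111 and 2, counted with the RefSeq start as base 1. The matches at -113 and -111 are opposite strands of 1 palindromic stretch and so form 1 site. The 2 overlapping matches to SP/KLF in Ndufaf4 began at -89 and -84, and the CTCF core lay between these and the start. NRF1 is a transcription factor known for nuclear genes of the respiratory chain. Ndufaf5 had 2 overlapping NRF1 matches, at bases 17 and 19 of the transcript, which are likewise opposite strands of 1 palindromic site. Ndufaf2 had 1 SP/KLF match and Ndufa12 had 2, whereas the window of Ndufb2 held none of the motifs. Of the contrast pair, Ndufa3 had 1 match each to YY1 and SP/KLF and Ndufb3 had none. A match describes letters in the reference, of the C57BL/6J strain, and not binding in these neurons.

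Across all 44 Nduf genes the median distance to a boundary was 30.7 kb, with quartiles at 13.5 and 69.5 kb. Protein-coding genes of equal local gene density had a median of 58.1 kb (quartiles 25.99 and 103.6 kb), and all autosomal protein-coding genes one of 58.4 kb. Density was the number of other protein-coding starts within 500 kb (median 13 for Nduf genes, against 16 for all), and the equal-density value weights the genes outside the set by the density deciles of the Nduf genes. Of the Nduf genes, 29 were closer to a boundary than the median gene of their own density decile, 16 were closer than 75 percent of it and 7 were farther than 75 percent of it.

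Within 25 kb of a boundary lay 16 of the 44 Nduf genes (36.4%, exact Clopper-Pearson 95% interval 22.4 to 52.2%), against 24.3% of genes of equal density and 24.3% of all autosomal protein-coding genes. The interval, which treats genes as independent and covers counting error only, contains the background share. At 2 kb the counts were 5 of 44 Nduf genes (11.4%, interval 3.79 to 24.6%), against 3.16% at equal density and 3.21% of all. This cut is finer than the bin, so these shares of other genes leave out some that also start inside a bin. The 5 Nduf genes, however, are all those that start inside a bin. The shares at 2 kb are therefore not a like comparison, and no excess is read from them. Of the 5047 genes of all within 25 kb, 4200 started outside the bin, as did 11 of the 16 Nduf genes. The rest of the 5047 started inside a bin and outnumber the 667 of all genes counted at 2 kb. At 10 kb the counts were 8 of 44 (18.2%), against 11.8% and 11.7%. The gap was widest among the distances used at 50 kb, where 29 of 44 Nduf genes (65.9%, interval 50.1 to 79.5%) stood against 44.0% at equal density and 43.7% of all. At 100 kb 37 of 44 Nduf genes (84.1%) were counted, against 73.6% and 73.1%. With 1 list of boundaries no difference was tested, and these shares describe positions in 1 map. Ndufa6 at 23.2 kb and Ndufb5 at 25.5 kb are the genes on either side of 25 kb.

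**Figure D1:**
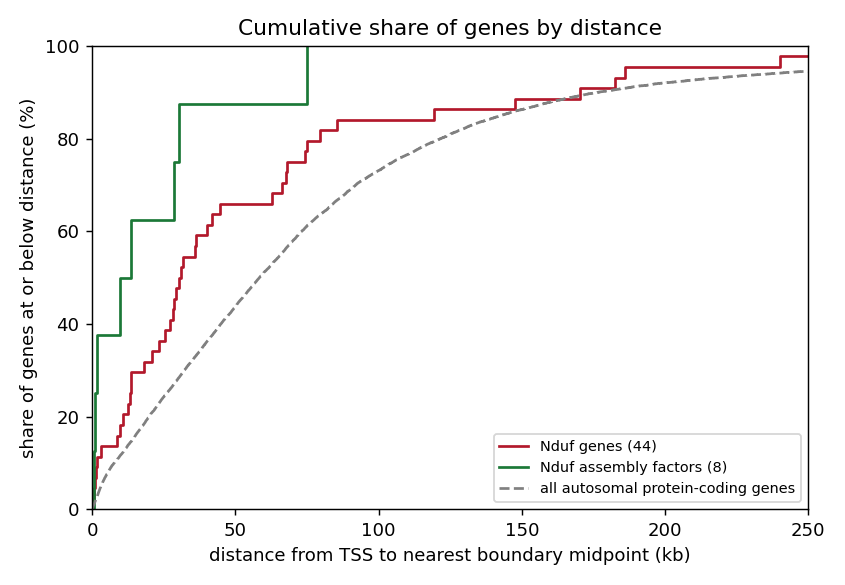
The share of genes (vertical axis, percent) at or below each distance from the start to the nearest boundary midpoint (horizontal axis, kb), for the 44 Nduf genes (red), the 8 assembly factors named Nduf (green) and all autosomal protein-coding genes (grey, dashed). The curve of the Nduf genes reaches 65.9% at 50 kb, where that of all genes is at 43.7%, and the curves meet beyond 100 kb.

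The 7 core subunits of the matrix arm, which between them carry the flavin and the iron-sulfur clusters, had 3 members within 25 kb of a boundary, where the share of all genes was 24.3%. Parentheses give the gene on GRCm38 and the side of its nearest boundary in the direction of transcription, where the start is outside the bin. Ndufs1 (chr1:63143596-63176833, minus strand, boundary upstream), the largest iron-sulfur subunit, started 10.7 kb downstream of a Strong boundary with a score of 1.85, higher than the score of 94.8% of autosomal boundaries. Ndufs7 (chr10:80249121-80256794, plus strand, boundary downstream), which holds the last cluster before ubiquinone, lay 13.4 kb from a Weak boundary of score 0.277. Ndufv2 (chr17:66078638-66101559, minus strand, boundary upstream), an iron-sulfur subunit of the NADH-oxidising module, lay 20.9 kb from a Strong boundary of score 1.19. These 3 genes span low and high scores at like distances.

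Ndufv1 (chr19:4007384-4012806, minus strand, boundary upstream), the subunit that binds NADH and the flavin, lay 79.7 kb from a Weak boundary of score 0.377. Ndufs3 (chr2:90894634-90904827, minus strand, boundary upstream) lay 147.7 kb from a boundary (Weak, 0.406) and Ndufs8 (chr19:3908863-3912774, minus strand, boundary downstream), another iron-sulfur subunit, 170.3 kb (Strong, 0.572). Ndufv1 and Ndufs8 lay in the same interval between neighbouring boundaries on chromosome 19, an interval of 350 kb with 18 protein-coding starts. It was the only interval that held 2 Nduf genes, and the nearest boundaries of the 44 genes were 44 different bins.

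Of the 9 accessory subunits of the matrix arm, 3 lay within 25 kb of a boundary (33.3%, interval 7.49 to 70.1%), against 24.6% at equal density, and the median distance was 31.6 kb. Ndufa12 (chr10:94198720-94221443, plus strand, start inside the bin), a small subunit on the side of the matrix arm, was the closest at 1.22 kb, and its start, at 94198720, lay in the bin of a Strong boundary of score 0.759. Its RefSeq start, at 94199035, is another site in the same bin. Ndufv3 (chr17:31520115-31531331, plus strand, boundary upstream), a subunit of the NADH-oxidising module, lay 12.6 kb from a boundary of score 1.60, and Ndufa6 (chr15:82350140-82354322, minus strand, boundary upstream), a member of the LYR protein family that holds an acyl carrier protein, 23.2 kb from one of score 0.235. The score of Ndufa6 was the lowest of the 44 genes.

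Ndufs6, a zinc-binding subunit, at 31.0 kb and Ndufa9, which binds a nicotinamide nucleotide near the ubiquinone site, at 31.6 kb were close to the median of the set. Ndufa7 lay at 62.9 kb, Ndufa2 (chr18:36742332-36744557, minus strand, boundary upstream) at 67.9 kb, Ndufs4, whose loss in mice gives a Leigh-like encephalopathy, at 74.2 kb, and Ndufa5 at 85.5 kb. The boundary of Ndufa2 had a score of 2.48, higher than that of 98.9% of autosomal boundaries and the highest of the 44. No accessory subunit of the matrix arm was farther than 100 kb from a boundary.

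The 17 autosomal accessory subunits of the membrane arm had a median of 29.3 kb. Within 25 kb lay 5 (29.4%, interval 10.3 to 56.0%), against 24.5% at equal density, and within 50 kb lay 13 (76.5%, interval 50.1 to 93.2%), against 44.2%. Ndufb2 (chr6:39592574-39603382, plus strand, start inside the bin) started 0.0735 kb from the midpoint of the bin of a Strong boundary of score 0.712. Ndufb10 (chr17:24722060-24724478, minus strand, boundary upstream) lay 3.02 kb from a Strong boundary of score 1.56, and Ndufb9 (chr15:58933756-58939488, plus strand, boundary downstream), another LYR protein, 8.74 kb from one of score 1.30. Ndufc1 at 13.5 kb (score 1.16) and Ndufb6 at 18.1 kb (score 0.771) completed the 5. All 5 were next to Strong boundaries, as were 67.0% of all genes within 25 kb.

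A further 8 membrane-arm genes lay between 25 and 50 kb: Ndufb5, Ndufb8, Ndufb4, Ndufs5, Ndufb7, Ndufa13, Ndufa8 and Ndufa11, in order of distance, with values of 25.5 to 44.7 kb. Ndufs5, Ndufb7 and Ndufa8 encode small cysteine-rich subunits on the intermembrane side, and Ndufa13 is also known as Grim19. Their boundaries ranged in score from 0.272 at Ndufa13 to 1.58 at Ndufb5. Ndufa10, which has the fold of a nucleoside kinase, lay at 66.4 kb and Ndufc2 at 67.5 kb. Ndufb3 (chr1:58586384-58595964, plus strand, boundary downstream) at 186.1 kb and Ndufa3 (chr7:3617373-3620327, plus strand, boundary upstream) at 404.9 kb stood apart from the other genes of this arm, next to Strong boundaries of score 1.57 and 0.768, and 94.0% of the genes in the density decile of Ndufa3 were closer to a boundary. Both encode small subunits that span the membrane.

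Ndufab1, the mitochondrial acyl carrier protein that binds LYR subunits in both arms, lay 119.4 kb from a Weak boundary of score 0.433. Over all 34 complex I subunits 11 were within 25 kb of a boundary (32.4%, interval 17.4 to 50.5%), against 24.4% at equal density, a share inside the interval. Their median was 33.7 kb.

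**Figure D2:**
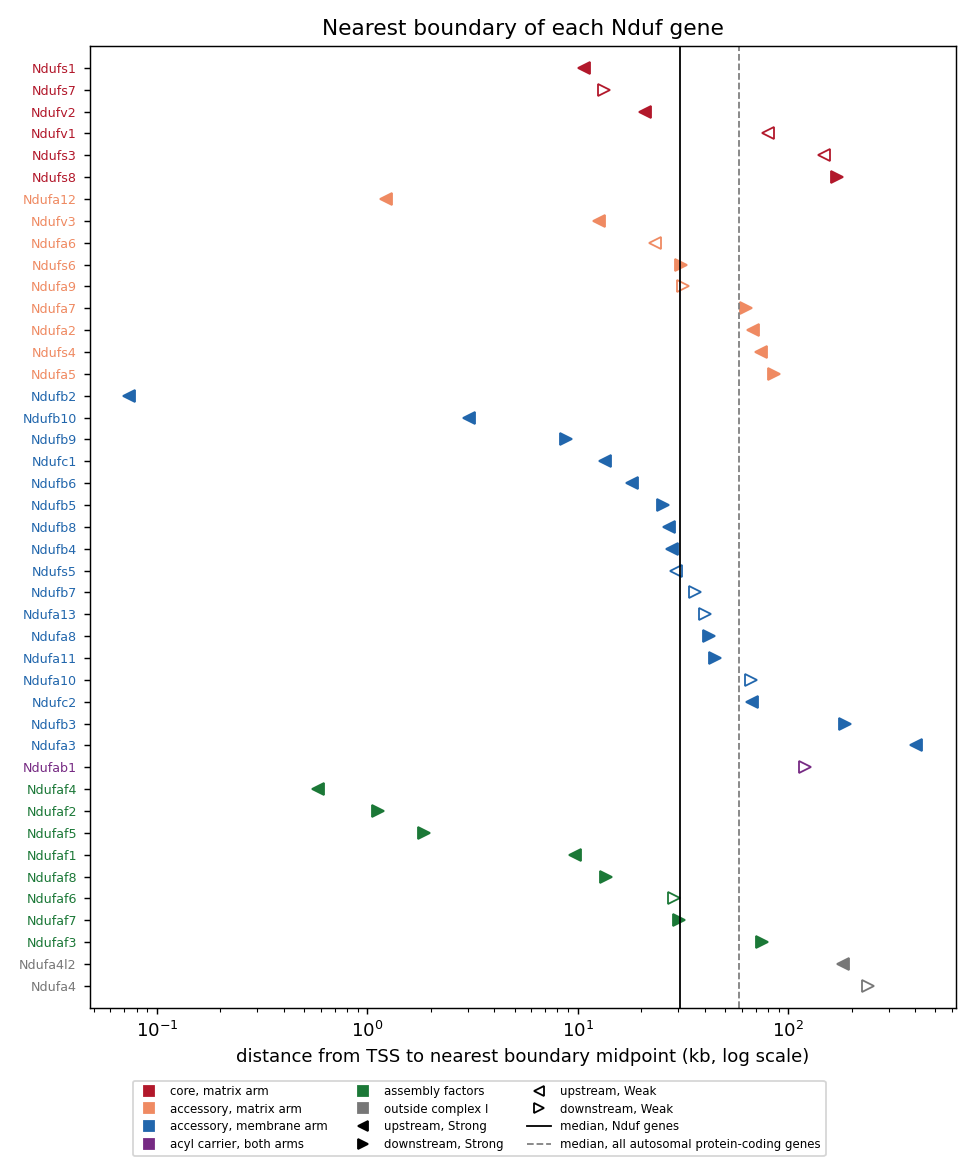
Distance from the start of each Nduf gene shown to its nearest boundary midpoint (horizontal axis, kb, log scale), with a row for each gene and grouped by role in colour. A marker pointing left stands for an upstream boundary and a marker pointing right for a downstream boundary, filled for Strong and open for Weak (the side is not resolved for the 5 genes under 2 kb), and the lines are the medians of all 44 Nduf genes (30.7 kb, solid) and of all autosomal protein-coding genes (58.4 kb, dashed).

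The 8 assembly factors, which build or modify the enzyme and are absent from its finished form, were the group with the shortest median, 11.6 kb. Within 25 kb of a boundary lay 5 of the 8 (62.5%, interval 24.5 to 91.5%), against 24.3% of genes of equal density. The width of the interval shows how little 8 genes can resolve. Ndufaf4 (chr4:24898083-24905001, plus strand, start inside the bin), which acts with Ndufaf3 on the early matrix arm, started 0.583 kb from the midpoint of a Strong boundary of score 0.915. Ndufaf2 (chr13:108002715-108158623, minus strand, start inside the bin), a relative of Ndufa12 that holds the place of that subunit until late assembly, lay 1.12 kb from a Strong boundary of score 1.04. Ndufa12 and Ndufaf2 both started inside the bin of a Strong boundary, as did Ndufb2, Ndufaf4 and Ndufaf5. No share over other pairs of related genes was set beside this pair.

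Ndufaf5 (chr2:140170649-140203689, plus strand, start inside the bin), which hydroxylates an arginine of Ndufs7, lay 1.85 kb from a Strong boundary of score 0.553. Ndufaf8 (chr11:120098928-120100705, plus strand, boundary downstream), its partner in assembly, lay 13.6 kb from a boundary of score 0.747 and Ndufaf1 (chr2:119655446-119662827, minus strand, boundary upstream), part of the complex that assembles the membrane arm, 9.67 kb from one of score 0.872. Among the rest, Ndufaf6 (chr4:11051045-11076205, minus strand, boundary downstream) lay at 28.7 kb (Weak, 0.340) and Ndufaf7 (chr17:78937136-78948052, plus strand, boundary downstream), an arginine methyltransferase, at 30.4 kb (Strong, 0.720). Ndufaf3 (chr9:108565537-108567434, minus strand, boundary downstream) was the farthest assembly factor, at 74.9 kb (Strong, 1.20), so the partners Ndufaf3 and Ndufaf4 were at opposite ends of the group.

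Ndufa4 (chr6:11900292-11907497, minus strand, boundary downstream), now counted with cytochrome c oxidase in mammals, lay 240.0 kb from a boundary on either side, of which the nearer was Weak with a score of 0.269. Ndufa4l2, its relative known for induction by low oxygen, lay 182.5 kb from a Strong boundary of score 0.558. Neither gene was within 25 kb of a boundary. Without them the share within 25 kb was 38.1% and the median distance 29.8 kb. On the X chromosome Ndufb11, a membrane-arm subunit, lay 10.1 kb from a Strong boundary of score 1.19 and Ndufa1, another, 113.7 kb from a Weak one of score 0.486.

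The nearest boundary was Strong for 32 of the 44 Nduf genes (72.7%), against 65.3% of genes of equal density and 65.3% of all. The median score was 0.745 for Nduf genes, against 0.693 at equal density and 0.695 for all. Among the 16 Nduf genes within 25 kb, 14 had a Strong boundary (87.5%), against 67.0% of all genes at that distance, and Ndufs7 and Ndufa6 were the exceptions. The median score of these 16 was 0.894, against 0.708 for all genes within 25 kb. For the 28 Nduf genes farther away, 18 boundaries were Strong (64.3%), against 64.8% of all genes at such distances, and the median score was 0.676, against 0.687. All 8 Nduf genes within 10 kb of a boundary were next to a Strong one. Weak boundaries were spread from 13.4 kb at Ndufs7 to 240.0 kb at Ndufa4. The Strong share of all genes within 10 kb is not given here, and a pattern of class with distance was not tested.

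**Figure D3:**
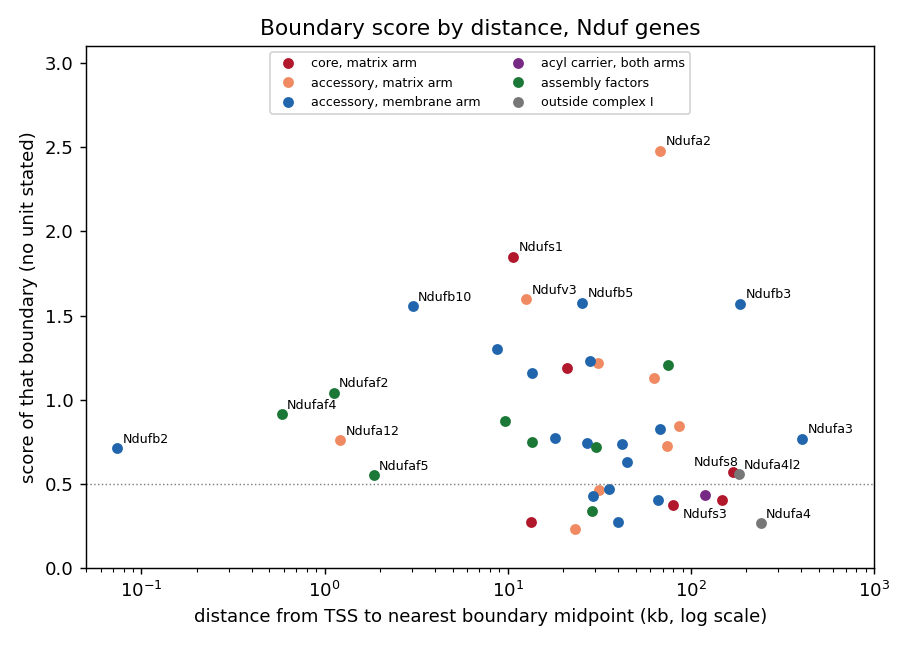
Score of the nearest boundary (vertical axis, no stated unit) against its distance from the gene start (horizontal axis, kb, log scale) for Nduf genes, in colours by role. The dotted line at 0.5 is the threshold between Strong and Weak. The 8 genes within 10 kb all lie above it, where 67.0% of all autosomal protein-coding genes within 25 kb have a Strong boundary. The highest score, 2.48, belongs to Ndufa2 at 67.9 kb.

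The nearest boundary lay upstream of the start, behind the promoter, for 22 of the 44 Nduf genes and downstream for the other 22. An upstream boundary was found for 51.6% of genes of equal density and 51.9% of all. Among the 39 Nduf genes that start outside the bin, where the side is resolved, the nearest boundary was upstream for 19. Within 25 kb it was upstream for 11 of 16 Nduf genes (68.8%), against 55.4% of all genes at that distance. Without the 5 genes whose start is inside the bin, it was upstream for 8 of 11 (72.7%), against 56.2% of all genes so placed, and the genes with a downstream boundary were Ndufb9, Ndufs7 and Ndufaf8. Of the assembly factors, 2 had the boundary upstream (25.0%), and of the 7 core subunits 5 did (71.4%). The first count includes Ndufaf4, which starts inside the bin, as do Ndufaf2 and Ndufaf5, so the side of these factors is not resolved. Beyond 25 kb the count was 11 of 28 Nduf genes (39.3%), against 50.7% of all.

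A boundary fell inside the gene body of 2 Nduf genes, Ndufaf2 with 2 boundaries and Ndufaf5 with 1 (4.55%), against 13.2% of all autosomal protein-coding genes. The bin of Ndufaf5's boundary and of 1 of those in Ndufaf2 also holds the start. Nduf genes were short, with a median length of 8.54 kb, against 17.6 kb for all, and the part of length in this count was not tested. The midpoint of the nearest boundary was between genes for 25 of 44 Nduf genes, against 51.0% of all, and inside a protein-coding gene for 19. At 15 of the 44 boundaries the Nduf gene was itself the protein-coding gene with the closest start, against 26.4% of all genes, and 9 of these 15 were within 25 kb. Having the closest start itself selects for a short distance. The share within 25 kb of all genes so placed is not given here. Elsewhere another gene was closer, as with Rpl3l at the boundary of Ndufb10, Rtf1 at that of Ndufaf1 and Wdr4 at that of Ndufv3.

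The interval between the boundaries on either side of an Nduf start had a median of 250 kb and 6 protein-coding starts, against 270 kb and 6 starts for genes of equal density. The narrowest was 90 kb around Ndufs7, with 6 starts, and the widest 870 kb around Ndufa3, with 23. Ndufaf5 stood at the end of an interval of 635 kb and Ndufb9 at the end of another of 520 kb, so that a short distance on the nearer side went with a long stretch on the other. The distance to the nearer boundary, as a fraction of the interval, had a median of 0.167 for Nduf genes and 0.226 at equal density, where 0.5 is the middle.

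**Figure D4:**
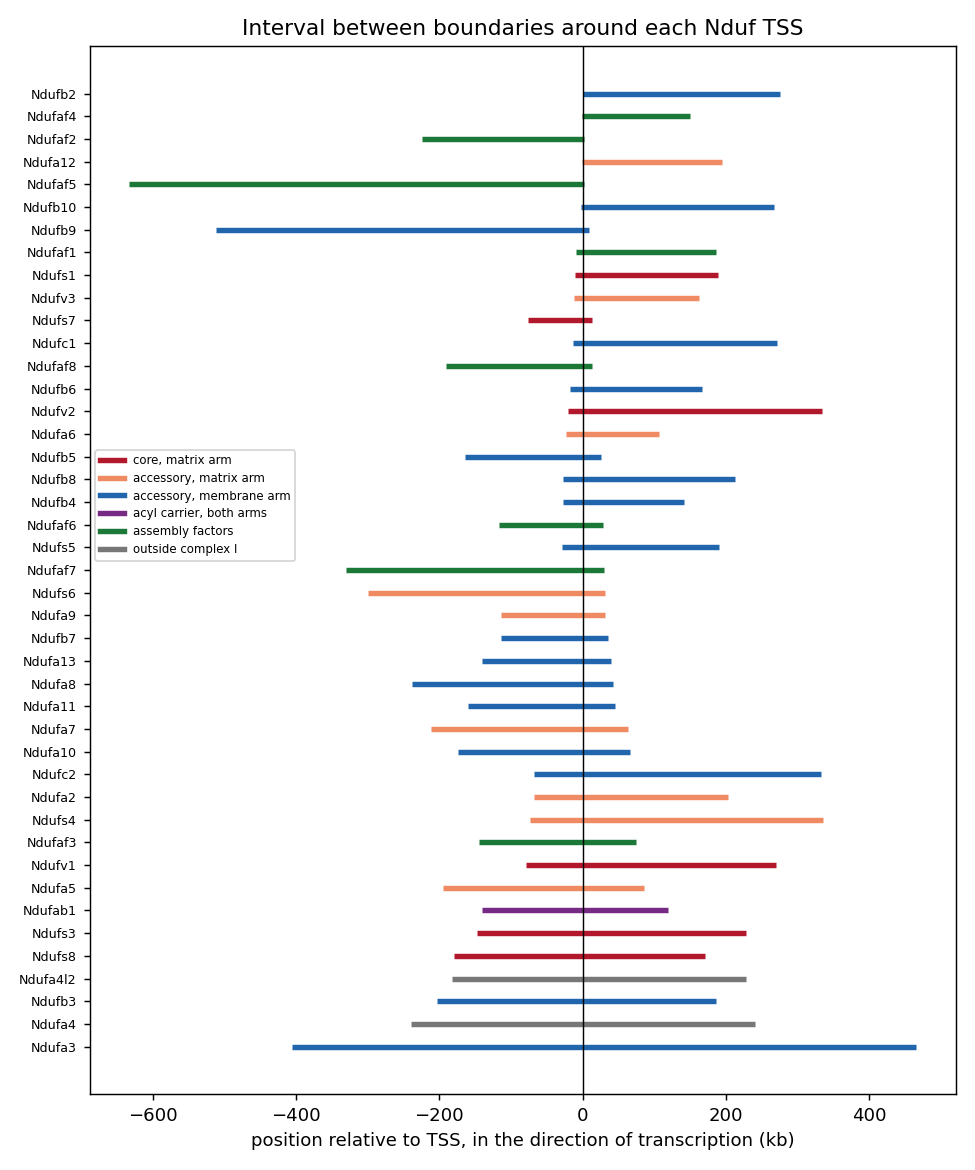
The interval between neighbouring boundaries around each Nduf start shown, with position relative to the start in the direction of transcription on the horizontal axis (kb, negative upstream) and a row for each gene, from the shortest distance at the top to the longest at the bottom, in colours by role. Ndufb2, Ndufaf4, Ndufaf2, Ndufa12 and Ndufaf5 sit at an end of their intervals, and Ndufa4 sits in the middle of 480 kb.

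Nduf genes often started next to a protein-coding gene of the opposite strand. Such a start lay within 1 kb for 19 of 44 Nduf genes (43.2%), against 11.2% of all autosomal protein-coding genes. In 12 of the 19 the transcription units pointed apart without overlap (27.3%), against 6.94% of all genes, and in 7 they overlapped. The narrower count was made first and the wider one was adopted after that count was known. By the wider count the share was 42.3% for mitochondrial ribosomal protein genes, close to that of Nduf genes. It was 28.9% for subunits of complexes II to V and 22.4% for proteasome genes. Cytosolic ribosomal protein genes had a share below that of proteasome genes and above that of all genes. A high share is therefore not particular to Nduf genes. Among the pairs pointing apart were Ndufa7 with Rps28, a ribosomal protein gene, 10 bases between starts, Ndufb9 with Tatdn1 at 18 bases, Ndufa8 with Morn5 at 52, Ndufb3 with Fam126b at 61 and Ndufaf7 with Cebpz at 70. Ndufaf5 with Esf1 at 85 bases and Ndufaf2 with Ercc8, a DNA repair gene, at 108 bases had a boundary within 2 kb as well. Ndufb5 with Mrpl47 and Ndufs6 with Mrpl36 joined complex I to mitochondrial ribosomal protein genes, with overlap.

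Of the 16 Nduf genes within 25 kb of a boundary 6 had such a partner, namely Ndufaf2, Ndufaf5, Ndufb9, Ndufs1, Ndufv3 and Ndufaf8, against 15.0% of all genes within 25 kb. For Ndufs1 the partner was Eef1b2, a translation elongation factor gene, and for Ndufv3 it was Wdr4, whose intron held the boundary. Of the 28 Nduf genes farther away, 13 had a partner, against 9.92% of all genes beyond 25 kb.

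In windows from 250 bases before to 50 bases after the GENCODE start, the ETS motif CCGGAAG was present in 7 of 44 Nduf promoters (15.9%), against 11.0% of all autosomal protein-coding promoters. NRF1 (GCATGCGC) was present in 4 (9.09%), against 3.45%, YY1 (AAGATGGC) in 6 (13.6%), against 2.93%, and SP/KLF (GGGCGG) in 21 (47.7%), against 43.7%. ETS was present in 22.2% of promoters of complexes II to V and 34.7% of proteasome promoters, with both ribosomal protein lists between them. All these shares were above that of Nduf genes. Mitochondrial ribosomal promoters held NRF1 in 8.97% and YY1 in 12.8%, and proteasome promoters in 8.16% and 10.2%. Complexes II to V had NRF1 in 13.3% and YY1 in 6.67%. Both were rarer in cytosolic ribosomal than in proteasome promoters. Both strands were searched for exact matches, and 17 Nduf promoters held none of the 4. These include Ndufa12, whose GENCODE start differs from its RefSeq start and whose printed RefSeq window does hold SP/KLF matches. The NRF1 motif was found in Ndufaf4, Ndufaf5, Ndufa6 and Ndufa11, and the YY1 motif in Ndufaf8, Ndufb8, Ndufa9, Ndufa2, Ndufa4l2 and Ndufa3. The genes with an ETS match included Ndufs1, Ndufs8, Ndufb6, Ndufb9, Ndufaf1 and Ndufaf8, and 5 of the 7 were within 25 kb of a boundary, against 32.3% of all genes with this motif. Of the 6 with YY1 1 was, against 32.6% of all genes with that motif, and counts this small were not compared.

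RefSeq windows, available for 38 of the 44 Nduf genes and 15703 genes in all, gave 15.8% against 12.6% for ETS, 13.2% against 3.80% for NRF1, 21.1% against 3.25% for YY1 and 52.6% against 48.8% for SP/KLF, with Nduf promoters against all promoters in each pair. The ratio of observed to expected CpG in the GENCODE windows had a median of 0.781 for Nduf promoters and 0.540 for all, and its part in the motif shares was not tested. Its median was 0.754 for proteasome genes and 0.820 for mitochondrial ribosomal protein genes. Cytosolic ribosomal protein genes and subunits of complexes II to V lay between these values. A lack of a match says only that these letters are not in the window.

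The CTCF core consensus was present within 10 kb of the midpoint of the nearest boundary for 36 of the 44 Nduf genes (81.8%), against 59.0% of all autosomal boundaries. The latter share is not a like comparison, because it includes boundaries far from any gene. The share at the nearest boundaries of other protein-coding genes is not given here. Strong boundaries held a match more often than Weak ones, in 69.0% and 47.0% of all autosomal boundaries. Of the boundaries next to Nduf genes, 27 of 32 Strong and 9 of 12 Weak boundaries held a match. The boundary of Ndufs1 had 9 matches and that of Ndufaf1 had 6, whereas those of Ndufa12 and Ndufaf5, both within 2 kb of the start, had none. The other boundaries without a match were those of Ndufa6, Ndufb5, Ndufb8, Ndufaf7, Ndufa10 and Ndufs3. Leaving out chromosome 18, there were 93 matches near the boundaries of Nduf genes, and 61.3% of them pointed away from the boundary. At all autosomal boundaries, chromosome 18 included, 55.2% did, which is again not a like comparison. Repeat-masked sequence held 66.7% of the matches near Nduf genes, against 66.4% of those at all boundaries.

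Among other genes of respiration, 21 of 45 subunits of complexes II to V lay within 25 kb of a boundary (46.7%), with a median of 32.8 kb. They were 2 of 4 for complex II, 5 of 9 for complex III, 9 of 16 for complex IV (median 13.2 kb) and 5 of 16 for ATP synthase. Complex I assembly factors with other names counted 4 of 10, and their median was 60.3 kb where that of the factors named Nduf was 11.6 kb. Outside respiration the counts were 39 of 80 cytosolic ribosomal protein genes (48.8%), 33 of 78 mitochondrial ribosomal protein genes (42.3%) and 24 of 49 proteasome genes (49.0%). The 36.4% of the Nduf genes was the lower value beside each of these last lists, and the interval of the Nduf share, 22.4 to 52.2%, contains all 3. The share at equal density was between 23.8% and 25.2% for each of these lists.

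**Figure D5:**
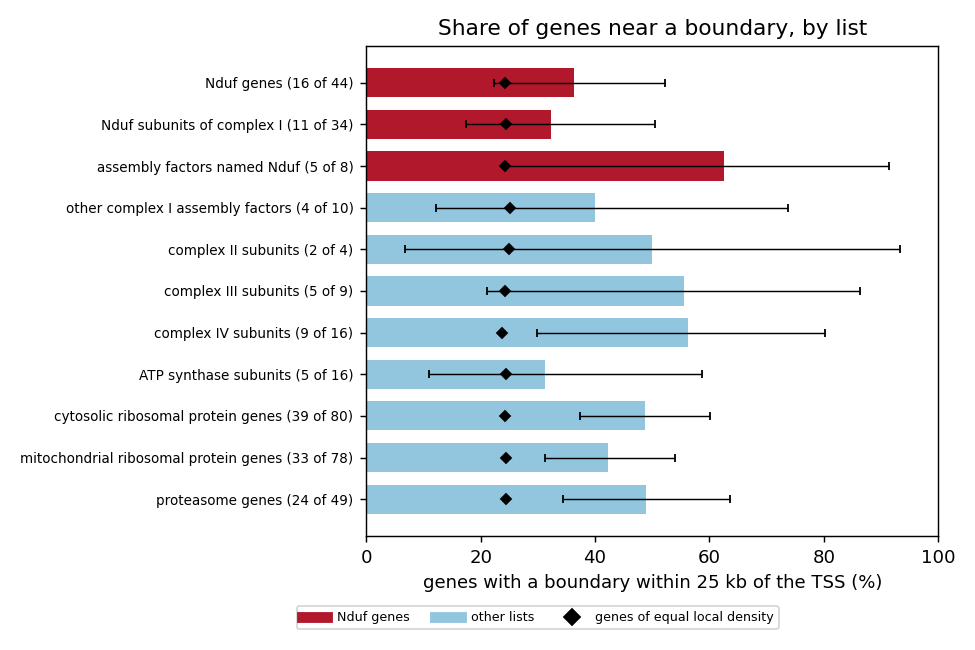
Percentage of genes with a boundary within 25 kb of the start (horizontal axis) for Nduf genes and their subgroups (red bars) and other gene lists (blue bars), with exact 95% binomial intervals as lines and the share of genes of equal local density as diamonds. The bar of the Nduf genes ends at 36.4%, its interval reaches below the diamond at 24.3%, and the bars of the ribosomal protein and proteasome lists end higher.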

How the data were processed

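In situ Hi-C was made from 2 replicates of Olfr17-positive olfactory sensory neurons (23000 and 20000 cells), which form 1 group. Per the labels' design text, the authors combined both contact lists on GRCm38 and called boundaries on the resulting matrix. The deposited list gives each bin of 5 kb a class and a score, with no unit stated, and the score was compared only within this list. Neither the aligner and its filters nor the boundary caller nor the contact number is given in the sources used here. Contact matrix, insulation track and compartment track were not used here.

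Gene starts came from GENCODE M21 and promoter sequences from RefSeq (GRCm38.p6). Distances, side and score were computed with Python 3.11.15, numpy 2.4.6 and scipy 1.17.1, tested on simulated data. Genes outside the set were weighted by the density deciles of the Nduf genes, from counts of protein-coding starts within 500 kb. Intervals are exact binomial ones at 95%. Boundaries exist as 1 list, so no difference between samples was tested. All members were counted, and 1 is not reported individually here. Full values were given for core subunits, assembly factors, the 10 nearest and 3 farthest genes and the highest and lowest scores, with partner genes within 1 kb and the genes closest to the boundaries of the nearest members. The members, lists and comparisons were chosen with earlier results of these data known. Results were recomputed with the Strong class only, with the highest-scoring boundaries, with other distances, density measures and starts, with the X chromosome added and with each autosome left out. After values were seen, ribosomal pseudogene symbols were dropped from the cytosolic list, a repeated ATP synthase gene was counted as 1, and RefSeq windows, CTCF orientation and repeat shares were added. Coa1 matched no gene under that symbol, and Ndufb1-ps is not protein-coding in this annotation.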

Additional observations from a re-analysis of the deposited data

How the results depend on the processing

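The share of Nduf genes within 25 kb of a boundary, its difference from genes of equal density and the median distance were recomputed with other settings. So were the median score and the Strong and upstream shares. Of 160 recomputed values, motif and partner shares included, 153 stayed inside the 95% interval of the value reported. Many of the 160 leave out 1 autosome, and only 16 autosomes hold an Nduf gene. Nearly all reuse the same genes, and the intervals are wide, so this count says little about robustness. The difference from genes of equal density was 12.1 percentage points as reported, with an interval of -1.89 to 27.9 points that spans both signs. It kept its sign in every setting run, but these settings share most genes and boundaries and are not separate evidence. Without olfactory and vomeronasal receptor genes among the comparators the difference was 10.8 points. The median distance was 53.8 kb with Strong boundaries alone and 65.2 kb with the boundaries in the upper part of the score range (above 0.545), both lists having fewer boundaries. The share was 18.2%, 65.9% and 84.1% at 10, 50 and 100 kb. The upstream share was 68.8% among the genes within 25 kb, a count that includes the 5 genes inside the bin, whose side is not resolved. The share with a start of the opposite strand within 1 kb was 27.3% where transcription units must not overlap, and the wider count in the results, 43.2%, was adopted after this one had been seen. With each autosome left out in turn, the share within 25 kb was between 33.3% (without chromosome 15) and 39.0% (without chromosome 7), and the difference from equal density between 9.22 points (without chromosome 15) and 14.4 points (without chromosome 19). Counting any annotated protein-coding transcript start brought Ndufb5 and Ndufaf7 within 25 kb, for a share of 40.9%. No paired analysis was possible because the replicates were combined before boundaries were called, and for the same reason neither replicate could be left out. Depth is unknown, 44 genes leave wide intervals, and distances finer than the bin of 5 kb carry no information about the position of a boundary.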

Other observations

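Ndufs7 and Uqcr11, a complex III subunit gene, had the same nearest boundary on chromosome 10, a Weak one of score 0.277, at 13.4 kb and 144.3 kb. This pair was picked with its values in view.

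Some subunit genes of the other complexes also started inside the bin of a boundary, where the order of distances is not resolved. Examples at a Strong boundary are Cox8a of complex IV, Atp5o of ATP synthase, Sdhd of complex II and Uqcrfs1 of complex III. Cox6a1 of complex IV also started inside a bin, that of a Weak boundary of score 0.229. These examples were picked with their values in view, and no share over all genes was set beside them.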
